A study of Sus scrofa with 70 samples.

Results

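The genes described here encode parts of the axoneme, the microtubule core of motile cilia and of the sperm flagellum, together with 2 scaffolds of the sperm tail. They are all genes whose name in the deposited annotation begins with DNAH, DNAI, DNAAF, CFAP, RSPH, DRC, TEKT or ODAD, plus AKAP3 and AKAP4. The rule used names and no measured values, and it gave 87 of the 35,552 genes in the expression table, of which 15,686 carry a name. By family there were 41 CFAP, 13 DNAH, 10 DNAAF, 6 RSPH, 5 DNAI, 4 TEKT, 3 DRC, 3 ODAD and 2 AKAP genes. Transcript values were summed by gene in TPM (a length-normalised transcript level, scaled to the same total in every library), so levels can be set side by side between genes.

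RNA was profiled in 5 reproductive glands of adult male pigs aged 12 months from 2 breeds. The breeds were the Banna mini-pig inbred line (BMI) and the Diannan small-ear pig (DSE), the stock from which BMI was inbred. Testis and epididymis were taken, and in addition the bulbourethral, prostate and vesicular glands, which are called the 3 accessory glands here. Each breed and gland had 3 short-read RNA-seq libraries, 30 in all, and 1 long-read Iso-seq library, 10 in all. The labels name no treatment or engineered allele, and BMI is a single inbred line. The study's methods describe as many tissue samples as there are short-read libraries, but neither they nor the labels say whether the samples of a group came from separate animals. P-values therefore measure the spread between these tissue samples.

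An axoneme beats because dynein motors, arranged as outer and inner arms on doublet microtubules, slide neighbouring doublets past each other. Radial spokes and the nexin-dynein regulatory complex control the motors, docking proteins anchor the outer arms, tektins and many CFAP proteins line the inside of the doublets, and assembly factors fold the dyneins in the cytoplasm before they are carried into the organelle. In the male tract, developing sperm in the testis build flagella, whereas motile cilia of somatic cells are known from the efferent ducts, and several axoneme parts exist as separate paralogues for cilia and for sperm.

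INSL3 and STAR, which Leydig cells express, had 19,670 and 2684 TPM on average in testis, and 12 of 12 tested epididymal epithelium markers were called higher in epididymis than in the accessory glands. The 10 most abundant transcripts took 9.24% to 64.7% of a library, the most in vesicular gland. Sequencing depth is not given with TPM values, but the study lists the total reads of each library. DSE testis replicate 2 stood apart. The genes of the set summed to 1952 TPM in it and to 5517 to 6922 TPM in the other 5 testis libraries, and 80 of the 87 genes were lowest there. Its level of PRM1, the protamine of late spermatids, was 18,217 TPM against 46,809 to 71,826 TPM in the others, and its level of INSL3 was 42,359 TPM against 11,447 to 23,381 TPM. The breed comparison in testis, which rests on this library, is given with and without it. BMI prostate gland replicate 2 had the lowest sum of the prostate libraries, 128 TPM against 177 to 204 TPM. Its level of AWN, a seminal plasma spermadhesin, was 52,018 TPM, against at most 2.90 TPM in the other prostate libraries and 56,644 to 96,681 TPM in vesicular gland. AWN had 2446 TPM in BMI epididymis replicate 1 and 679 TPM in DSE epididymis replicate 2. In DSE epididymis replicate 1 the epididymal markers CES5A and CRISP1 had 6.74 and 21.3 TPM, against at least 486 and 1100.0 TPM in the other epididymis libraries. BMI epididymis replicate 2 had the highest sperm markers of the epididymis libraries.

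**Figure D1:**
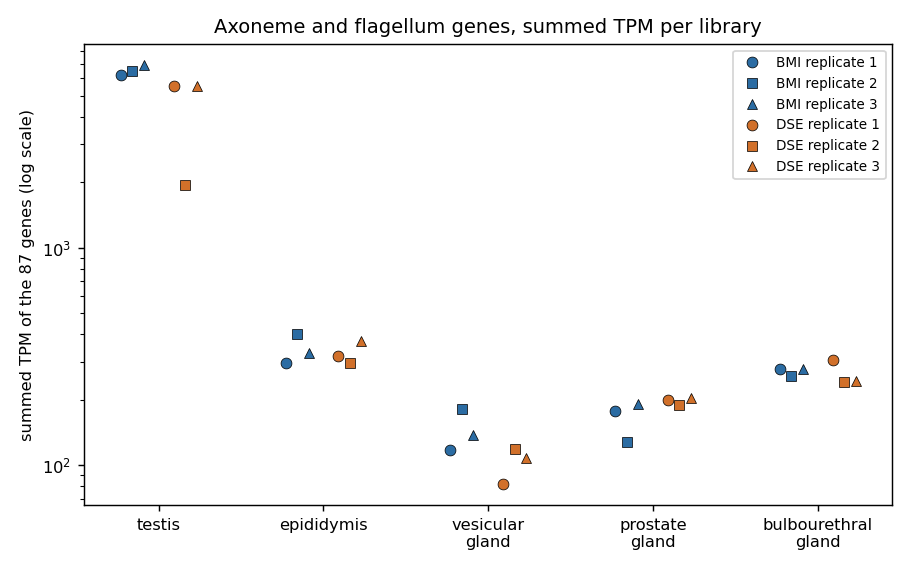
Summed TPM of the 87 axoneme and flagellum genes (vertical axis, log scale) in each of the 30 RNA-seq libraries by gland, with breed as colour and replicate as marker shape. Testis libraries lie at 5517 to 6922 TPM except DSE testis replicate 2 at 1952 TPM, above epididymis at 295 to 401 TPM and every accessory gland library.

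Taken as a share of all TPM, the set took 0.552% to 0.692% of the testis libraries other than DSE testis replicate 2, which had 0.195%. Epididymis sums were 295 to 401 TPM. Those of bulbourethral gland were 242 to 304 TPM, those of prostate gland 128 to 204 TPM and those of vesicular gland 81.7 to 182 TPM. The lowest testis library therefore lay above the highest library of every other gland. Median-of-ratios size factors, which scale libraries to each other, were 0.393 to 0.973 in vesicular gland and 0.7698 to 1.19 in prostate gland. They were 0.887 to 1.32 in bulbourethral gland and 0.9495 to 1.68 in epididymis. The sums were not divided by these factors. Whether the order of the glands outside testis holds after such scaling was not tested. Testis had the highest mean level for 81 of the 87 genes and epididymis for 4, while CFAP100 was highest in bulbourethral gland and DNAH11 in vesicular gland.

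The first comparison asked which of these genes testis expressed above the mean of the other 4 glands. A gene was tested when it reached 1 TPM in at least 3 of the 30 libraries, which 84 of the 87 did. AKAP3, DNAH11 and CFAP73 did not. A gene was called when limma gave a Benjamini-Hochberg adjusted p below 0.05 over all 19,796 genes tested and the groups differed by 1 or more on the log2(TPM + 1) scale. Of the 84, 79 were called higher in testis and 0 lower, where 34.6% of all genes tested were called higher and 12.7% lower. In 69 of them every testis library lay above all 24 others, which held for 23.8% of all genes. The median log2 fold change was 4.26, beside 0.31 over all genes. Of the 84 genes, 31 passed the filter only with the help of testis libraries, which favours a call there, and 30 of them were called higher. They were 12 CFAP, 7 DNAH, 4 DNAI, 4 RSPH, 2 DNAAF, 1 TEKT and 1 AKAP gene, so the family counts are no support in themselves. Of the 53 that passed it outside testis, 49 were called higher, with a median of 3.65. Fewer cells of a type and less RNA per cell cannot be told apart in such bulk samples. The family medians ran from 3.22 in the DNAH and 3.52 in the DNAAF genes to 6.39 in the TEKT genes, apart from AKAP4, the 1 AKAP gene tested, at 8.35. Leaving out DSE testis replicate 2 kept the same 79 calls.

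**Figure D2:**
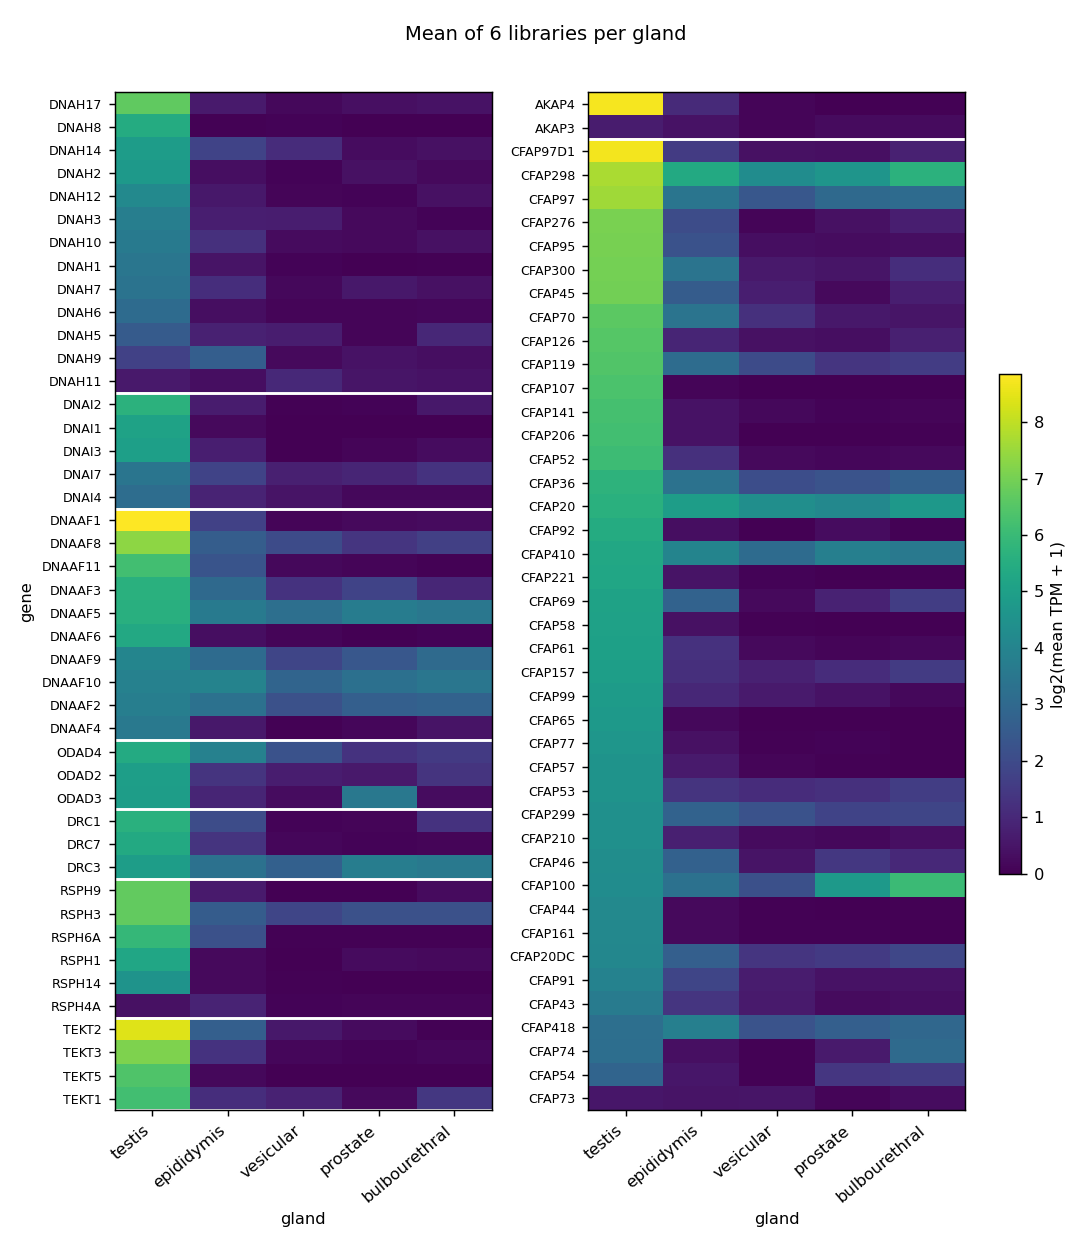
Mean TPM over the 6 libraries of a gland for each of the 87 genes (rows, grouped by family between white lines) in the 5 glands (columns), coloured as log2(mean TPM + 1). Most rows are bright in testis alone, while CFAP298, CFAP20, CFAP410 and DNAAF5 have colour in all 5 glands and CFAP100 is brightest in bulbourethral gland.

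Outer dynein arms carry 2 heavy chains in cilia and in sperm, taken from paralogous pairs. DNAH8 and DNAH17 are the outer-arm heavy chains of the sperm flagellum, and DNAH5, DNAH9 and DNAH11 those of motile cilia. DNAH17 (chromosome 12, 3482650 to 3591132) had 89.1, 121 and 97.5 TPM in BMI testis and 147, 44.3 and 119 TPM in DSE testis, and at most 1.04 TPM in any library of another gland. The testis libraries of DNAH17 did not overlap the others, with a log2 fold change of 6.22 ± 0.16 (SE, adjusted p = 6.00e-21). DNAH8 (chromosome 7, 34188145 to 34479629) had 43.7, 47.2 and 45.5 TPM in BMI testis and 63.6, 13.6 and 41.0 TPM in DSE testis. Outside testis DNAH8 stayed at or under 0.127 TPM in every library, and its log2 fold change was 5.27 ± 0.16 (SE, adjusted p = 1.17e-19).

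The paralogues known from cilia were lower in testis and differed from each other. DNAH5 (chromosome 16, 3114273 to 3430341) had 6.82, 5.41 and 8.72 TPM in BMI testis and 2.04, 2.47 and 3.18 TPM in DSE testis. Bulbourethral gland libraries of DNAH5 reached 2.99 TPM and overlapped testis, and DNAH5 was still called higher in testis by 1.81 ± 0.18 on the log2 scale (SE, adjusted p = 1.92e-09). DNAH9 (chromosome 12, 56045381 to 56358236) had 1.37 to 3.52 TPM in the 6 testis libraries. In epididymis DNAH9 had 9.76, 1.16 and 9.69 TPM in BMI and 0.824, 8.22 and 2.29 TPM in DSE, so that 3 libraries exceeded every testis library and 2 lay under every one. DNAH9 was not called between testis and epididymis, with a log2 difference of -0.60 ± 0.35 (SE, adjusted p = 0.129). DNAH11 was highest in vesicular gland, at 0.587 to 2.04 TPM, with at most 1.10 TPM in testis. Under their own labels, the median summed TPM of DNAH5, DNAH9, DNAH11 and the radial spoke gene RSPH4A was 7.89 in testis and 6.87 in epididymis, beside 220 and 4.50 for DNAH8, DNAH17 and RSPH6A. For the former 4 genes testis and epididymis libraries overlapped, and for the latter 3 they did not.

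**Figure D3:**
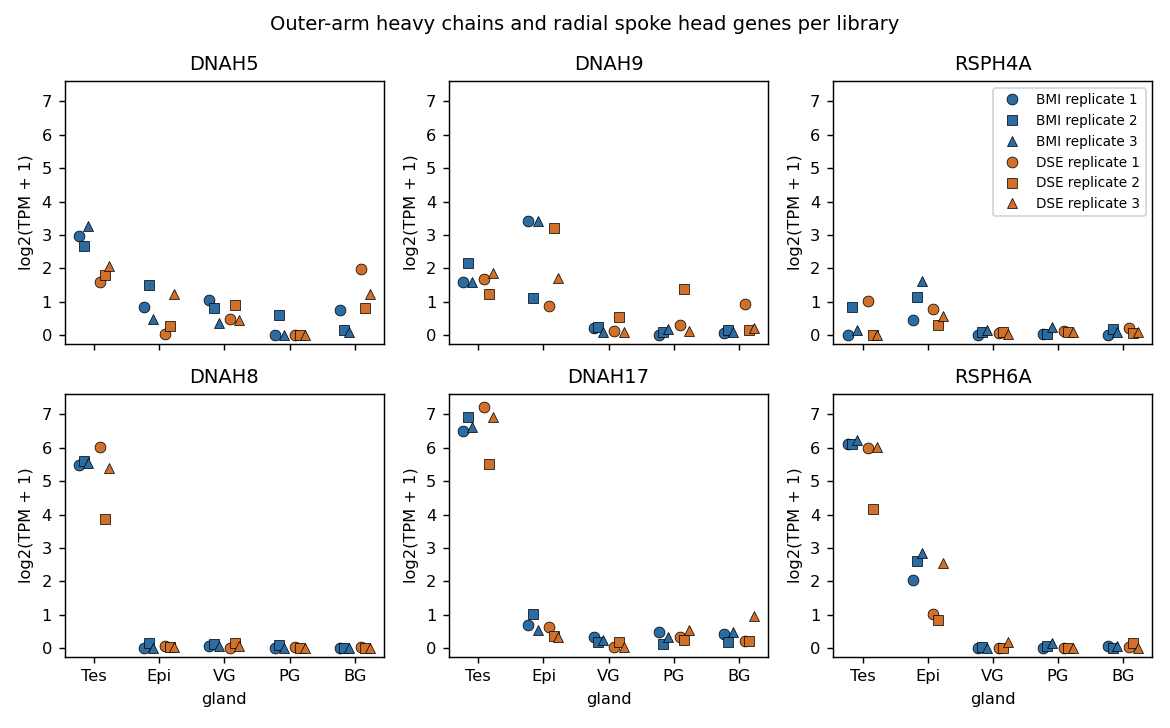
log2(TPM + 1) per library (vertical axis) by gland (Tes for testis, Epi for epididymis; the accessory glands are BG for bulbourethral, PG for prostate and VG for vesicular) for the genes known from motile cilia (DNAH5, DNAH9, RSPH4A, upper row) and their paralogues known from sperm (DNAH8, DNAH17, RSPH6A, lower row), with breed as colour and replicate as shape. The lower row is highest in all 6 testis libraries, while DNAH9 and RSPH4A, plotted under its own label alone, reach their highest library in epididymis.

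Inner dynein arms hold a different set of heavy chains, and 8 of 8 were called higher in testis, with a median log2 fold change of 3.22. Of these DNAH1, DNAH2, DNAH3, DNAH6 and DNAH12 passed the filter only with testis libraries, and the other 3 passed it outside testis. DNAH14 had the highest mean of them, with 30.5, 32.9 and 38.9 TPM in BMI and 34.9, 8.21 and 25.1 TPM in DSE testis. DNAH2 followed with 13.6 to 33.5 TPM, and DNAH6 had the lowest mean, 7.63 TPM. Neighbours in this order overlapped in their testis libraries. The first place of DNAH14 rests on a long-read isoform of 1051 nt and 7 exons, which held 56.3% of its testis TPM. Without that isoform, a choice made after seeing the data, 12.4 TPM of DNAH14 remained on average, under the 26.5 TPM of DNAH2. DNAH2 also led with a long-read isoform, of 7746 nt and 48.3% of its testis TPM, and kept 13.7 TPM without it. The largest fold change among them was that of DNAH2, 4.47 ± 0.12 (SE, adjusted p = 1.81e-20), and the smallest that of DNAH7, 2.74 ± 0.13 (SE, adjusted p = 1.46e-15). The summed level of the 8 was 47.8 to 156 TPM in testis and 3.12 to 11.9 TPM in epididymis. Reads of DNAH14 cannot be told apart from those of LBR on the opposite strand where their exons overlap, since strandedness of the libraries is not stated. In all, 29 genes of the set share exon bases with a label on the opposite strand and 15 with one on the same strand, DNAH17 and DNAH14 among the former.

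Intermediate chains hold the dynein motors to the doublet, and 5 of 5 DNAI genes were called higher in testis. DNAI2, an outer-arm intermediate chain, had 77.9, 68.0 and 57.2 TPM in BMI and 56.3, 11.6 and 28.4 TPM in DSE testis. DNAI1, its partner, had 43.5, 47.8 and 48.0 TPM in BMI and 20.99, 7.67 and 29.1 TPM in DSE testis, and at most 0.314 TPM in any other library. The breeds did not overlap for DNAI1 in testis, and the same held for DNAI2. DNAI7 had the smallest change of the family, 2.31 ± 0.18 (SE, adjusted p = 3.14e-11), with 8.69 to 11.5 TPM in testis and up to 4.19 TPM in epididymis.

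Assembly factors work in the cytoplasm, and 9 of 10 DNAAF genes were called higher in testis over a wide range. DNAAF1 (chromosome 6, 4457094 to 4480405), a leucine-rich repeat protein needed for dynein arms, had the highest mean of the whole set in testis. It reached 509, 568 and 529 TPM in BMI and 589, 135 and 426 TPM in DSE testis, and at most 5.34 TPM elsewhere, with a log2 fold change of 8.17 ± 0.23 (SE, adjusted p = 2.87e-20). DNAAF8 followed with 224, 223 and 234 TPM in BMI and 108, 53.6 and 116 TPM in DSE testis. At the other end, DNAAF2, a co-chaperone of dynein preassembly, differed by 1.05 ± 0.10 on the log2 scale (SE, adjusted p = 6.91e-10), with 10.4 to 15.1 TPM in testis and 7.42 to 10.3 TPM in epididymis. DNAAF10 did not reach the fold threshold, at 0.52 ± 0.14 (SE, adjusted p = 0.00136). Its levels were 11.7 to 14.4 TPM in testis and 8.60 to 17.9 TPM in epididymis, which overlapped.

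All 3 ODAD genes, which encode docking proteins of the outer arm, and all 3 DRC genes were called higher in testis. ODAD3 (chromosome 2, 70087887 to 70096958) had 34.6, 40.2 and 42.0 TPM in BMI and 16.5, 12.3 and 30.1 TPM in DSE testis, and 2.44 to 14.2 TPM in prostate gland, where its libraries overlapped testis. ODAD4 had 17.6 to 63.0 TPM in testis and 9.44 to 17.7 TPM in epididymis. DRC1, a core subunit of the regulatory complex, had at least 48.7 TPM in the testis libraries other than DSE testis replicate 2, which had 17.9 TPM, and at most 7.26 TPM elsewhere. DRC3 was the least restricted of the 3, with 11.2 to 37.9 TPM in testis and 7.42 to 15.8 TPM in prostate gland, and its exons overlap those of ATPAF2 on the opposite strand.

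Radial spokes connect the doublets with the central pair, and 5 of 6 RSPH genes were called higher in testis. RSPH9, a spoke head component, had 137, 136 and 156 TPM in BMI and 84.1, 26.3 and 94.9 TPM in DSE testis, at most 1.66 TPM in epididymis and a log2 fold change of 6.34 ± 0.20 (SE, adjusted p = 1.39e-19). RSPH3, a spoke stalk protein that anchors kinases, had 47.4 to 143 TPM in testis and 1.11 to 6.28 TPM in the other glands. RSPH1 and RSPH14 had 16.3 to 49.0 TPM and 6.25 to 27.3 TPM in testis, and at most 0.417 and 0.760 TPM elsewhere. RSPH6A (chromosome 6, 52118911 to 52139311), the spoke head paralogue of sperm, had 67.5, 68.4 and 73.6 TPM in BMI and 62.7, 17.1 and 63.8 TPM in DSE testis. Its paralogue RSPH4A (chromosome 1, 44963886 to 44985202) was at 0 in 3 testis libraries and at 0.128, 0.791 and 1.02 TPM in the others, and was not called, at 0.06 ± 0.15 (SE, adjusted p = 0.735). Its highest value under this label, 2.06 TPM, came from an epididymis library. A label joining RSPH4A to a neighbour had 0.993 to 2.31 TPM in the testis libraries and 0 in every other gland. With the joined label added, RSPH4A was called higher in testis, at 1.09 ± 0.12 (SE, adjusted p = 1.73e-08), so its call depends on how the joined label is counted.

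Tektins form filaments inside the doublets, and among families with more than 1 tested gene the 4 TEKT genes had the highest median. TEKT2 (chromosome 6, 92233525 to 92237901) had 410, 373 and 451 TPM in BMI and 331, 116 and 361 TPM in DSE testis. Outside testis the highest TEKT2 level was 18.7 TPM, in BMI epididymis replicate 2, and the log2 fold change was 7.55 ± 0.27 (SE, adjusted p = 2.63e-18). TEKT3 had 45.4 to 205 TPM and TEKT5 26.5 to 147 TPM in testis, with at most 2.62 and 0.378 TPM elsewhere. TEKT1 had 18.3 to 113 TPM in testis and up to 2.97 TPM in bulbourethral gland, and no library of TEKT1 outside testis reached the lowest testis library.

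Of the 40 CFAP genes tested, 38 were called higher in testis, and the median log2 fold change was 4.26. CFAP97D1 (chromosome 12, 19330357 to 19336308) came first with 446, 443 and 696 TPM in BMI and 381, 120 and 369 TPM in DSE testis, at most 2.88 TPM elsewhere and a log2 fold change of 7.79 ± 0.23 (SE, adjusted p = 3.78e-20). CFAP107, CFAP95, CFAP276, CFAP206 and CFAP141 followed with log2 fold changes of 6.23, 6.19, 6.14, 5.97 and 5.89. CFAP107, CFAP95, CFAP276 and CFAP141 are known as proteins inside the doublet microtubule. CFAP107 was listed at 0 in all 18 accessory gland libraries, beside at least 32.1 TPM in every testis library. CFAP206, which links radial spokes and inner arms, had 29.3 to 85.7 TPM in testis and at most 0.861 TPM elsewhere. Within the family the order ran down to CFAP20, a tubulin-binding doublet protein, at 1.09 ± 0.15 on the log2 scale (SE, adjusted p = 2.92e-07), with CFAP418 at 0.33 and CFAP100 at 0.17 not called.

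The fibrous sheath is the cytoskeletal sleeve around the principal piece of the sperm tail, and AKAP4 and AKAP3 are its kinase anchors. AKAP4 (chromosome X, 43885394 to 43896093) had the largest fold change of the set, 8.35 ± 0.24 on the log2 scale (SE, adjusted p = 2.60e-20). Its levels were 478, 561 and 448 TPM in BMI and 581, 124 and 364 TPM in DSE testis. In epididymis AKAP4 had 0.622, 4.69 and 0.114 TPM in BMI and 0.546, 0.0650 and 0.475 TPM in DSE, and it was at or under 0.158 TPM in every accessory gland library. Over the 10 groups of breed and gland, the patterns most like that of AKAP4 were those of CFAP58, RSPH14 and CFAP206 (Pearson r = 0.998 for each, on mean log2 levels, a description over groups that share the testis contrast). For DNAH5 they were TEKT1, CFAP210 and ODAD2 (r = 0.943, 0.914 and 0.913).

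AKAP3 under its own label had only 0.230 to 1.01 TPM in testis. Its reads lay mostly under a second label that joins AKAP3 to the neighbouring gene ENSSSCG00000055899, which the rule did not take. In the RefSeq annotation of Sscrofa11.1, AKAP3 spans chromosome 5 from 65788744 to 65816031. That interval contains most of ENSSSCG00000055899, at 65788709 to 65792402 in the deposited annotation, where the AKAP3 label itself runs from 65797376 to 65819765. The joined label had 184, 150 and 204 TPM in BMI and 122, 47.2 and 157 TPM in DSE testis. Its mean was 3.40 TPM in epididymis and 1.06 to 1.98 TPM in the accessory glands, and 980 and 757 full-length reads came from BMI and DSE testis against 1 to 15 in each other Iso-seq library. The value of AKAP3 under its own label leaves these reads out.

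Between testis and epididymis alone, 77 of the 84 genes were called higher in testis and 0 lower, where 29.4% of all genes tested were higher and 21.6% lower. These libraries also enter the first comparison. The median log2 difference was 3.75, against -0.02 over all genes. Of the 53 genes that passed the filter outside testis, 47 were called higher, with a median of 3.06, and the other 31 needed testis libraries to pass it. AKAP4, DNAAF1 and CFAP97D1 again had the largest differences, 7.81, 7.17 and 7.06. Of the 7 genes not called, 4 had a difference below 0, which were DNAH9 at -0.60, CFAP418 at -0.58, RSPH4A at -0.47 and DNAAF10 at -0.04. With its joined label added, RSPH4A turned to 0.56 and was still not called. CFAP418, which is known from the photoreceptor cilium, had 5.90 to 13.5 TPM in testis and 9.50 to 16.9 TPM in epididymis, with an adjusted p of 0.00396 but less than the fold threshold. The other 3 were DNAAF2 at 0.50, CFAP20 at 0.70 and CFAP100 at 0.89.

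Genes were counted as kept in a gland when all 6 of its libraries had at least 1 TPM. Testis kept 83 of the 87, epididymis 28, bulbourethral gland 22, vesicular gland 17 and prostate gland 16. Among all named genes testis kept 71.5%, epididymis 65.5%, bulbourethral gland 64.8%, vesicular gland 57.7% and prostate gland 63%. So 95.4% of the set was kept in testis and 32.2% in epididymis. In testis and no other gland, 50 genes were kept, or 57.5% of the set beside 8.96% of named genes. In all 5 glands 14 were kept, or 16.1% beside 51.9%. Another 8 were kept in epididymis and in none of the accessory glands, namely CFAP300, CFAP45, CFAP46, CFAP70, CFAP91, CFAP95, DRC1 and TEKT2. Under their own labels AKAP3, CFAP73, DNAH11 and RSPH4A were kept in none. The counts depend on the threshold, and at 5 TPM epididymis kept 11 and vesicular gland 3.

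The 14 genes kept in all 5 glands were 7 CFAP, 5 DNAAF, 1 DRC and 1 RSPH gene, and no dynein chain or tektin. CFAP298, needed for dynein arm assembly, had the highest mean over the 4 glands outside testis, with means of 50.3 TPM in bulbourethral gland, 40.3 TPM in epididymis, 23.2 TPM in prostate gland and 18.8 TPM in vesicular gland, beside 213 TPM in testis. CFAP20 had 29.6 TPM in epididymis and 48.0 TPM in testis, a ratio of testis to the 4-gland mean of 2.11. CFAP410, DNAAF5, DNAAF10, DRC3, CFAP418, CFAP97 and DNAAF2 followed with 4-gland means from 11.6 down to 5.95 TPM. Of the 14, DNAAF8, RSPH3 and CFAP97 had the steepest testis excess, 53.7, 28.2 and 26.7 times the 4-gland mean. CFAP100 was the only one of the 14 whose mean was lower in testis than over the other glands, with a ratio of 0.715.

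**Figure D4:**
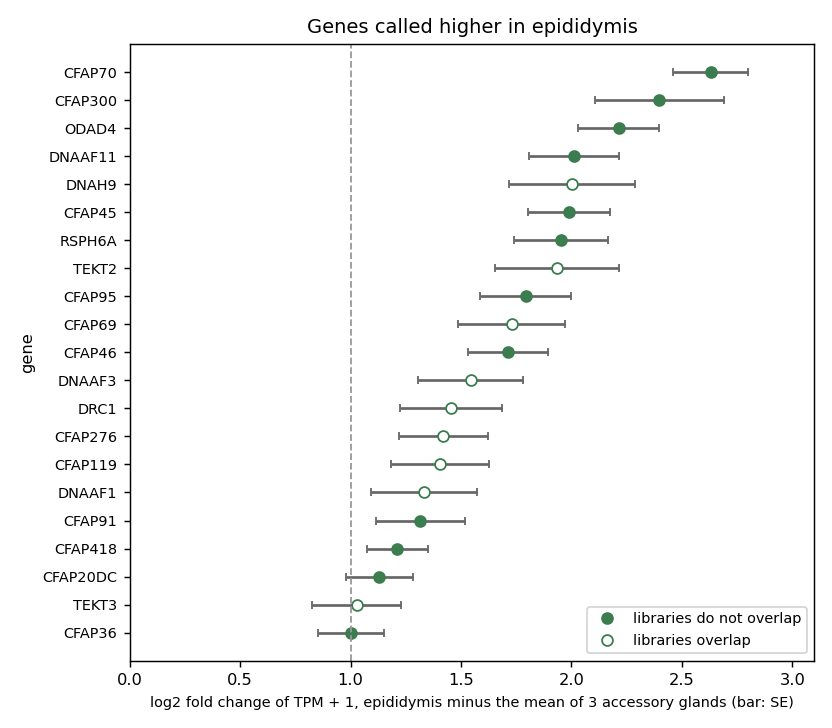
log2 fold change of TPM + 1 (horizontal axis, bars show the SE) of epididymis against the mean of the 3 accessory glands for the 21 genes called higher in epididymis, with a dashed line at the fold threshold. Filled points, 12 of the 21, mark genes whose 6 epididymis libraries all lay above all 18 accessory gland libraries, led by CFAP70 at 2.63.

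In epididymis against the mean of the 3 accessory glands, 21 of the 84 genes were called higher and 0 lower. Over all genes tested 17.7% were called higher and 2.42% lower, so the count of the set, near the share of all genes, is no result about the set as a whole in this fit. The median difference was 0.53, beside 0.41 over all genes. With a pseudocount of 0.1, which gives low levels more weight, 50 of the 84 were called higher, beside 28% of all genes. Of the 84, 31 passed the filter only with testis libraries. In a fit of the libraries compared here alone, 53 genes of the set were tested and 21 called higher. So how the set stands to all genes depends on the pseudocount and may depend on the filter. With median-of-ratios size factors 15 were, beside 9.12%. Of the 84 genes, 18 had all epididymis libraries above the accessory gland libraries, which held for 6.67% of all genes, and 12 of these were among the 21 called. CFAP70 (chromosome 14, 76075253 to 76439504), an axonemal protein whose gene shares exon bases with USP54 on the same strand, came first with 2.63 ± 0.17 (SE, adjusted p = 8.25e-12). It had 6.56, 9.67 and 11.3 TPM in BMI and 8.96, 9.66 and 10.8 TPM in DSE epididymis, and 0.0893 to 1.95 TPM in the accessory glands. CFAP300, an assembly factor of dynein arms, had 6.41, 11.7 and 5.23 TPM in BMI and 2.65, 6.43 and 24.6 TPM in DSE epididymis, with a difference of 2.40 ± 0.29 (SE, adjusted p = 3.23e-07). The 6 epididymis values of CFAP300 were spread widely, yet each exceeded all accessory libraries.

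ODAD4 and DNAAF11 came next with differences of 2.21 and 2.01. ODAD4 had 9.44, 16.1 and 14.3 TPM in BMI and 15.7, 9.46 and 17.7 TPM in DSE epididymis, beside 0.447 to 6.08 TPM in the accessory glands. CFAP45, a protein inside the doublet that binds adenine nucleotides, had 2.93 to 8.48 TPM in epididymis and a difference of 1.99. RSPH6A differed by 1.95, with 3.17, 5.17 and 6.20 TPM in BMI and 1.05, 0.819 and 4.91 TPM in DSE epididymis and at most 0.141 TPM in the accessory glands. CFAP95, CFAP46, CFAP91, CFAP418, CFAP20DC and CFAP36 completed the 12, with differences from 1.79 down to 1. DNAH9 differed by 2 ± 0.29 (SE, adjusted p = 3.17e-06), but its epididymis libraries overlapped the prostate gland, where 1 library had 1.61 TPM. TEKT2 also overlapped, since 1 prostate library had 1.11 TPM and the lowest epididymis library 1 TPM.

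Markers of sperm and of multiciliated cells both differed widely between the epididymis libraries. The 19 sperm and spermatid markers in the table summed to 132, 1132 and 28.0 TPM in BMI and 284, 3.46 and 76.3 TPM in DSE epididymis, and to 1.59 to 12.5 TPM over the accessory gland libraries. The 16 multiciliated cell markers summed to 109, 130 and 29.3 TPM in BMI and 17.6, 63.7 and 161 TPM in DSE epididymis, and to 4.65 to 29.4 TPM in the accessory glands, so that 2 epididymis libraries lay within the accessory range. FOXJ1, the transcription factor of motile ciliogenesis, had 0.945, 8.99 and 6.87 TPM in BMI and 0.601, 0.946 and 4.04 TPM in DSE epididymis and at most 0.597 TPM in the accessory glands. CAPS carried the highest sums, with 89.1 TPM in BMI epididymis replicate 2 and 133 TPM in DSE epididymis replicate 3, beside 1.68 to 12.4 TPM in the other epididymis libraries. CCNO had at most 0.124 TPM and SNTN at most 0.489 TPM in epididymis. Of the 13 markers tested, 2 were called higher in epididymis than in testis, CAPS and TPPP3, beside 21.6% of all genes. The other way, 9 were called higher in testis, beside 29.4% of all genes. Of the 13, 6 passed the filter only with testis libraries. Testis had 142 to 575 TPM for the same 16 markers, with means of 131 TPM for FAM81B, 92.9 TPM for TMEM190, 65.95 TPM for AGBL2 and 55.9 TPM for DEUP1.

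TEKT2 was highest in BMI epididymis replicate 2, at 18.7 TPM, where PRM1 had 744 TPM, and AKAP4 was also highest there. DNAH9 had 8.22 TPM in DSE epididymis replicate 2, where the sperm markers summed to 3.46 TPM, within the range of the accessory glands. In that library 15 of the 21 genes exceeded all 18 accessory gland libraries, and in each of the other 5 libraries 18 to 20 did, but the 21 were chosen on these same libraries, so these counts are a description. In relative terms, the 19 sperm markers had in epididymis a median of 0.305% of their testis level, with CATSPER1 highest at 10.5%. The 74 genes of the set with at least 10 TPM in testis had a median of 3.62%, with a range of 0.0979% to 106%, and 19 exceeded CATSPER1. What part sperm RNA or ciliated cells have in the epididymis levels was not tested. Leaving out BMI epididymis replicate 2 left 19 genes called higher.

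Among the accessory glands, 5 genes were called higher and 1 lower in bulbourethral gland than in the mean of vesicular and prostate gland, where 11.9% of all genes were higher and 2.83% lower. CFAP100 (chromosome 7, 53909388 to 53949647), known as a modifier of inner dynein arms, had 89.3, 61.2 and 69.7 TPM in BMI and 74.9, 66.1 and 26.4 TPM in DSE bulbourethral gland. It had 10.2 to 56.7 TPM in prostate gland and 1.02 to 7.23 TPM in vesicular gland, and the difference was 2.69 ± 0.30 (SE, adjusted p = 1.40e-07), with overlap at DSE bulbourethral gland replicate 3. CFAP74, a central pair projection protein, had 15.5, 7.18 and 9.85 TPM in BMI and 6.05, 3.43 and 2.10 TPM in DSE bulbourethral gland and at most 1.02 TPM in both others, a difference of 2.51 ± 0.20 (SE, adjusted p = 4.49e-10). Its bulbourethral gland level was close to its testis level of 2.83 to 9.61 TPM, and the 2 glands overlapped. CFAP298, CFAP69 and DRC1 differed by 1.26, 1.08 and 1.08, none of them with overlap. Of the 84 genes 5 had all bulbourethral gland libraries above, which held for 7.5% of all genes.

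Between vesicular and prostate gland 4 genes were called lower in vesicular gland and 0 higher, where 11.4% of all genes were lower and 3.42% higher. ODAD3 differed by -3.13 ± 0.29 (SE, adjusted p = 1.94e-08). It had 11.9, 2.44 and 14.2 TPM in BMI and 11.5, 12.1 and 11.8 TPM in DSE prostate gland, against at most 0.334 TPM in vesicular gland and 0.433 TPM in bulbourethral gland. The 5 prostate libraries apart from BMI replicate 2 were thus nearly alike, and all 6 exceeded every vesicular and bulbourethral library. Of the 84 genes, 6 had all vesicular libraries under all prostate libraries, which held for 8.92% of all genes, and 3 of these were among the 4 called. ODAD3 was also the gene lower in bulbourethral gland, at -1.55. With a pseudocount of 0.1, 17 genes were called higher and 4 lower in bulbourethral gland, beside 18.5% and 4.98% of all genes, and 10 higher and 11 lower in vesicular than in prostate gland, beside 5.18% and 18%. With median-of-ratios size factors these were 2 and 1, beside 4.82% and 5.38%, and 6 and 3, beside 6.74% and 5.56%. CFAP100 was lower in vesicular than in prostate gland by -2.59, CFAP54 by -1.29 and DRC3 by -1.05. In BMI prostate gland replicate 2 the accessory gland markers summed to 316,824 TPM, against 106,444 to 179,635 TPM in the other prostate libraries, and AWN had 52,018 TPM, just under the vesicular gland range. Without that library the calls were 6 between vesicular and prostate gland and 6 for bulbourethral gland, and ODAD3 differed by -3.47, CFAP100 by -2.94, CFAP54 by -1.44 and DRC3 by -1.15 between vesicular and prostate gland.

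Regulatory factors of the RFX family are known to act on cilium genes through paired sites, so the 300-base window from 250 bases before to 50 after the start of each gene's most abundant transcript was searched on both strands for the full RFX site (X-box), its left arm GTTGCC, and the forkhead site TGTTTAC. The sequence was read from the RefSeq copy of Sscrofa11.1. The left arm was in 27 of the 87 windows, 31.0%, and in 12.7% of the windows of 15,492 named genes. The full site was in 1 window, 1.15%, and in 0.361% of all. The forkhead site was in 5, 5.75%, and in 2.43%. The left arm was in 6 of the 14 genes kept in all 5 glands, in 3 of the 8 kept in epididymis and no accessory gland and in 11 of the 50 kept in testis alone. Matches are a description of letters, and no binding was measured.
The windows shown here belong to genes described above, with 30 bases on the strand of the gene and the match, or its reverse complement, in capitals. The first holds the full site and the others the left arm.
CFAP20DC, minus strand, chr13:40768742-40768771: gccccttgGTTGCCTGGGCAACgcctacgt
CFAP276, plus strand, chr4:110955107-110955136: gggggcggggctGTTGCCtggcaactgaaa
CFAP298, minus strand, chr13:196224966-196224995: cctgtttctccgGGCAACagccacttccgg
CFAP300, plus strand, chr9:32765803-32765832: cggggctcctggGTTGCCaaagtccgtggc
CFAP100, plus strand, chr7:53909368-53909397: gccaggagaacgGTTGCCttgacgacgtaa
RSPH6A, minus strand, chr6:52139207-52139236: ccctccctccttGGCAACcggcgtctctgc
TEKT2, plus strand, chr6:92233503-92233532: gcgcggccgcagGTTGCCaagcaaaacagg
DNAI2, minus strand, chr12:6832755-6832784: ccggggttgctaGGCAACgggtaaactccg
The match shown began 140 bases before the transcript start in CFAP20DC, 71 in TEKT2, 69 in CFAP300, 60 in CFAP298, 44 in CFAP276, 8 in CFAP100, 6 in DNAI2 and 1 in RSPH6A. The letters thus occur in genes with quite different patterns over the glands, from RSPH6A, at most 0.141 TPM in the accessory glands, to CFAP298, kept in all 5.

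Between the breeds in testis, 16 of the 84 genes were called lower in DSE and 0 higher, where 3.7% of all genes tested were called lower and 1.06% higher. The difference lay below 0 for 80 of the 84, with a median of -0.73, beside -0.05 over all genes. In 38 genes the DSE libraries all lay under the BMI libraries, which held for 15.3% of all genes. Much of this rested on DSE testis replicate 2. Without it the median was -0.19 and 59 of 84 genes lay below 0. Again 38 genes did not overlap, beside 19.8% of all genes, but leaving out a DSE library cannot end such a separation. Only 1 of the 16 stayed called. The count was 10 without BMI replicate 1, 4 without BMI replicate 3 and 29 without DSE replicate 3, and it was 3 with a pseudocount of 0.1, beside 2.12% of all genes, and 0 in a fit of the testis libraries alone, beside 0.374%. Testis somatic markers had a median of 0.63 in the same contrast with 3 of 10 called higher in DSE, INSL3 among them, and a median of 0.27 without the library. Sperm markers had a median of -0.79 with 1 of 19 called lower, and of -0.19 without it. Their part in the breed difference was not tested.

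CFAP210 (chromosome 15, 75979209 to 76007159), a protein inside the doublet microtubule, kept its call without that library. It had 30.8, 29.9 and 30.1 TPM in BMI and 9.94, 7.56 and 15.7 TPM in DSE testis, a difference of -1.43 ± 0.21 (SE, adjusted p = 6.22e-05) with DSE testis replicate 2 and -1.21 without it. The BMI libraries of CFAP210 were nearly equal, and the highest DSE library lay well under them. DNAI1 differed by -1.40 ± 0.26 (SE, adjusted p = 0.000725) and by -0.88 without the library. DNAAF8 differed by -1.36 and by -1.01 without it, as all 3 DSE libraries lay between 53.6 and 116 TPM and all BMI libraries between 223 and 234 TPM. TEKT1 differed by -1.32 and -0.80, and DNAI2 by -1.30 and -0.73. The other 11 were RSPH9, CFAP92, CFAP53, CFAP157, CFAP276, DNAH5, CFAP141, TEKT5, DNAH3, CFAP77 and CFAP65, with differences from -1.24 to -1.02. Without DSE testis replicate 2 they ranged from -1.14 to -0.56, and none was called. RSPH9 moved from -1.24 to -0.67, CFAP92 from -1.22 to -0.63, CFAP53 from -1.21 to -0.59 and CFAP65 from -1.02 to -0.56, while DNAH5 moved from -1.16 to -1.14. By family, 8 CFAP, 2 DNAH, 2 DNAI, 2 TEKT, 1 DNAAF and 1 RSPH gene were called, and 15 of the 16 did not overlap, with TEKT5 the exception.

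**Figure D5:**
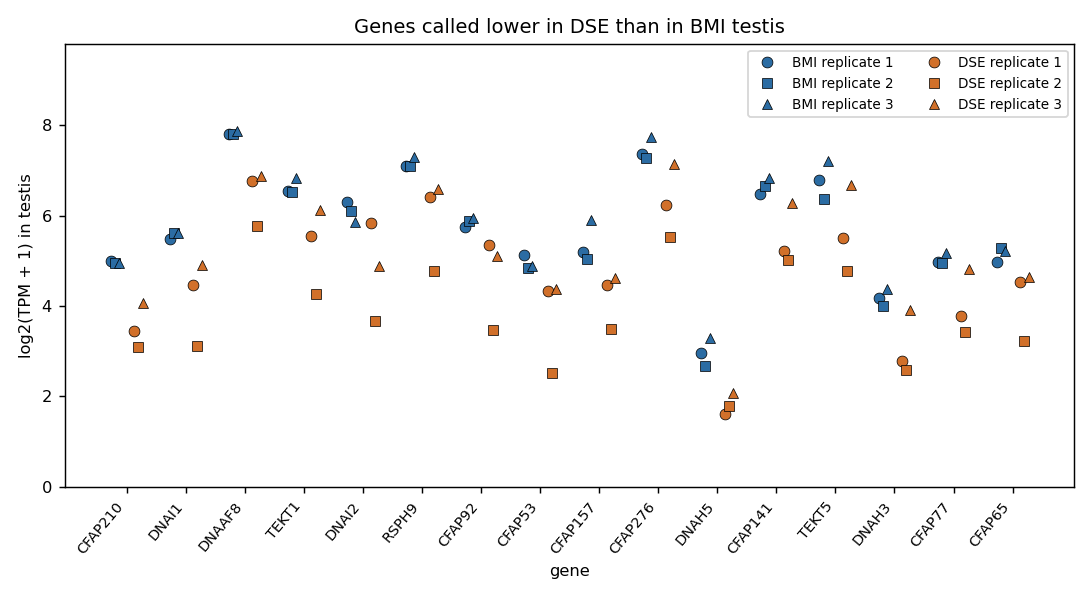
log2(TPM + 1) in testis (vertical axis) of the 16 genes called lower in DSE, ordered by the size of the difference, for each of the 3 BMI and 3 DSE libraries. DSE replicate 2 is the lowest point for 15 of the 16 genes, and in CFAP210 and DNAAF8 the other DSE libraries also lie well under BMI.

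In epididymis 2 genes were called higher in DSE and 0 lower, where 0.414% of all genes were higher and 0.293% lower. DRC7, a surface subunit of the nexin-dynein regulatory complex, had 0.0616, 0.661 and 0 TPM in BMI and 1.57, 2.77 and 4.08 TPM in DSE, a difference of 1.6 ± 0.36 (SE, adjusted p = 0.0294). DNAH14 had 0.848, 0.483 and 0.128 TPM in BMI and 8.77, 1.89 and 2.62 TPM in DSE, a difference of 1.68 ± 0.39 (SE, adjusted p = 0.0355). Its highest value came from DSE epididymis replicate 1, where CES5A and CRISP1 were low, and without that library DNAH14 differed by 1.15 and was not called. The study lists for that library the lowest median transcript integrity number of all its RNA-seq libraries. The isoform of 1051 nt held 8.24, 1.67 and 2.16 TPM of the DSE values, and the other DNAH14 transcripts summed to 0.262, 0.483 and 0.128 TPM in BMI and 0.533, 0.219 and 0.459 TPM in DSE, so that the breeds overlapped in them. Of the 84 genes, 3 had all DSE libraries above, these among them, which held for 2.8% of all genes, and the DSE values of DNAH14 were spread more widely than those of DRC7. Leaving out 1 library gave 0 to 4 calls, with 0 without BMI replicate 3, 1 without BMI replicate 2, DSE replicate 1 or DSE replicate 2 and 4 without DSE replicate 3, and size factors or a fit of the epididymis libraries alone gave 0. In vesicular, prostate and bulbourethral gland 0 genes were called in limma, with 6, 7 and 5 at an unadjusted p under 0.05, where 0.535%, 0.621% and 0.283% of all genes were called in either direction. All DSE libraries lay above all BMI libraries in 18 of the 84 genes in prostate gland, beside 29.6% of all genes, and below in 1, beside 1.89%. In vesicular gland they lay below in 12, beside 21.1%, and above in 1, beside 1.75%. In bulbourethral gland 8 lay above and 6 below, beside 4.57% and 5.07%. Whether breed differences themselves differ between glands was not tested.

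In the long reads, which have 1 library per breed and gland and no replicates, 491 isoforms of 83 of the genes were recorded with 12,274 full-length reads. The 2 testis libraries held 88.1% of these reads and 26.3% of all reads. In testis the set took 1.12% of the BMI library (95% exact interval 1.09% to 1.15%) and 1.25% of the DSE library (1.21% to 1.28%). In epididymis the shares were 0.0711% and 0.0912%, and in the accessory glands 0.0387% to 0.0622%. Intervals cover counting error only. AKAP4 had 2506 reads, 99.6% of them from testis, CFAP70 had 1159, DNAAF1 1137, CFAP97 717 and DNAAF8 435. Testis gave a small part of the reads of CFAP418, 11.0% of 263, and of CFAP100, 6.15% of 130. The other genes not called higher in testis in the short reads had 25.5% of 102 reads from testis for DNAAF10, 25% of 12 for DNAH9 and 28.6% of 7 for RSPH4A under its own label. DNAH11, which was not tested, had 0% of 17. Of the isoforms, 266 were seen in testis alone, 54.2% beside 16.8% of all isoforms, and 82.5% had splice patterns other than an annotated full or partial match, beside 81.6%.

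Dynein heavy chains are the longest transcripts of the set, and few long reads covered them. DNAH3 had an isoform of 12,018 nt beside 12,221 nt for its longest Ensembl transcript. DNAH5 reached 3308 nt of 15,920 nt and DNAH9 4260 nt of 13,751 nt, with 25 and 12 reads. The DNAH5 transcript that took 69.8% of its testis TPM was a long-read isoform of 2606 nt and 14 exons, and that of DNAH8, with 45.7%, one of 3472 nt and 21 exons. That of DNAH14, with 56.3% in testis and 85.9% in epididymis, had 1051 nt and 7 exons, against 13,039 nt for its longest Ensembl transcript. DNAH9 was instead carried by the Ensembl transcript of 13,751 nt and 69 exons, at 61.5% in testis and 98.6% in epididymis. Transcripts under 25% of the longest Ensembl length held part of the testis TPM of each. These parts were 94.4% for DNAH5, 56.3% for DNAH14, 53.9% for DNAH8 and 33.0% for DNAH9. So the testis levels of DNAH5, DNAH8 and DNAH14 rest in large part on isoforms far shorter than the full heavy chain.

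Isoform use was compared between testis and epididymis for the 27 genes with at least 1 TPM in all 12 libraries and more than 1 transcript. A transcript's share of its gene was averaged over the 6 libraries of a gland. The transcript with the highest mean share differed in 10 of them, 37.0% beside 24.7% of all genes, and in 5 its shares did not overlap between the glands, 18.5% beside 11.0%. In CFAP97 a 3845-nt isoform held 39.0% in testis and 4.71% in epididymis, and a 4778-nt isoform held 73.9% in epididymis and 0% in testis. In DRC3 the 2532-nt Ensembl transcript held 67.9% in testis and 26.3% in epididymis, where a 2210-nt isoform led with 35.6%. In DNAAF5 a 2953-nt isoform held 52.0% in testis and 1.26% in epididymis. CFAP119 led with a 1307-nt isoform in testis and a 1116-nt transcript in epididymis, and CFAP20DC with 1522 nt and 3257 nt. The other 5 with a different leading transcript by this measure were CFAP70, CFAP91, CFAP95, DNAAF10 and DNAAF3. For CFAP91 the epididymis shares were close, 39.1% and 36.0%, and by mean TPM in place of mean share the 2786-nt isoform led in both glands. At a minimum of 5 TPM the count was 4 of 10 genes, beside 21.8% of all genes.

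Other genes of the same structures were taken from lists that follow the literature on cilia. Of 31 tested axoneme genes under other symbols, 22 passed the filter outside testis, and 18 of these were called higher in testis than in the mean of the other glands. The other 9, SPAG6 among them, passed it only with testis libraries and were called too. Of the 31, 9 were called higher in epididymis than in the accessory glands. Of all genes 34.6% were called higher in testis and 17.7% in epididymis. SPAG6, a central pair protein, had 243 ± 87.6 TPM (SD, n = 6) in testis and at most 1.91 TPM elsewhere. ROPN1L, a spoke protein, had 317 ± 129 TPM (SD, n = 6) in testis and 18.5 ± 14.2 TPM in epididymis. ZMYND10, an assembly factor, differed by 2.07 between epididymis and the accessory glands, while TPGS1 was not called in testis and had 54.8 TPM there and 56.7 TPM in bulbourethral gland. DNAL1, the outer-arm light chain, was the only gene of that list called lower in testis than in epididymis, with 9.91 against 44.7 TPM on average and a difference of -1.77 ± 0.31 (SE, adjusted p = 1.57e-05). DNAL1 was chosen after its value was seen.

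Of 29 intraflagellar transport genes, which carry cargo in primary and motile cilia alike, all past the filter outside testis, 27 were called higher in testis and 12 higher in epididymis than in the accessory glands, beside the same 34.6% and 17.7% of all genes. Their median difference in testis was 1.97. IFT57 had 157 TPM on average in testis and 18.6 TPM in epididymis, and IFT46 62.4 and 48.6 TPM. Of 14 other sperm tail genes, 8 passed the filter outside testis and all 8 were called higher there, and the other 6 passed it only with testis libraries, with OAZ3, ODF1, ODF2 and SMCP at 892 to 2029 TPM on average, and 6 were higher in epididymis than in the accessory glands. Of 16 regulators of multiciliation, 10 passed the filter outside testis and 6 of these were called higher in testis, with RFX2 at 159 TPM and RFX1 at 81.3 TPM, and 2 higher in epididymis, RFX2 by 1.18 and FOXJ1 by 1.57. Of 13 tested multiciliated cell markers, 7 passed the filter outside testis and 4 of these were called higher in testis. In the breed contrast in testis, 6 of the 31 axoneme genes, 1 of the 29 transport genes and 3 of the 16 regulators were called lower in DSE and 0 of them higher, where 3.7% of all genes were lower and 1.06% higher. Their median differences were -0.72, -0.60 and -0.53 with DSE testis replicate 2, and -0.36, -0.22 and -0.29 without it. Their calls were not recomputed without it.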

How the data were processed

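The authors deposited TPM values per transcript, made from short reads quantified on an assembly that joins Iso-seq isoforms with Ensembl transcripts of Sscrofa11.1. They also deposited full-length read counts per Iso-seq isoform and library. The submitters' processing notes name GSNAP 2018-07-04, STAR 2.7.10a, Salmon 1.9.0 and Bowtie 1.3.1. For the short-read libraries the labels state removal of ribosomal RNA and the study's methods selection on poly-T beads, so whether TPM count RNA without a poly(A) tail is not settled here. TPM carry no depth. The Iso-seq libraries held 231,413 to 458,697 counted reads.

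TPM were summed by gene label and tested as log2(TPM + 1) in limma 3.58.1 (R 4.3.3) over genes with at least 1 TPM in 3 libraries, with 10 groups of breed and gland in 1 fit of 30 libraries (20 residual degrees of freedom). A call required a log2 difference of at least 1 and, after Benjamini-Hochberg adjustment over all genes, a p below 0.05. Labels that join several genes were left out. Python 3.11.15 was used for the rest. The code was tested on simulated data. Members and lists were chosen with earlier results of these data known, and the split of genes by whether they passed the filter outside testis was added after seeing the data.

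Genes named were the outer and inner arm heavy chains, the paralogues, all RSPH and TEKT genes and the fibrous sheath anchors, the 10 called genes of each gland comparison with the largest change in each direction and no overlap, up to 5 per breed comparison and direction, the 10 genes kept in all glands with the highest level outside testis, and up to 4 genes with the highest mean of each other list. Genes outside this rule were named after their values were seen. Alternatives were another pseudocount, no filter, median-of-ratios size factors, a variance trend, a replicate block, fits of only the groups compared, joined labels added, other level minima and leaving out each library.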

Additional observations from a re-analysis of the deposited data

Results flagged for a closer look

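Summed TPM were compared within each gland by Dixon's test for 6 libraries, in 50 tests of the set and its families. Of these 12 passed its critical value at the 95% level. The tests share libraries and the sum of all genes holds the family sums, so the nominal 1 in 20 is no yardstick. Among single genes of the set, 16.1% to 21.8% passed per gland. DSE testis replicate 2 was far below the other 5 testis libraries for all genes together, at 1952 TPM against 5517 to 6922 TPM. The same library was far below the others for the DNAH genes at 111 TPM against 281 to 343 TPM, the DNAAF genes at 314 TPM against 810.02 to 1093 TPM, the DRC genes at 37.8 TPM against 109 to 144 TPM and the RSPH genes at 113 TPM against 349 to 380.0 TPM. BMI prostate gland replicate 2 was far below the other prostate libraries for all genes at 128 TPM against 177 to 204 TPM, for the CFAP genes at 78.5 TPM against 115 to 128 TPM and for the ODAD genes at 5.44 TPM against 13.2 to 14.7 TPM. The same prostate library was far above the others for the TEKT genes, at 1.67 TPM against 0.0248 to 0.318 TPM. BMI prostate gland replicate 3 was above the others for the AKAP genes, at 0.519 TPM against 0.0924 to 0.186 TPM. BMI epididymis replicate 2 was far above the others for the AKAP genes at 5.15 TPM against 0.332 to 1.11 TPM and for the TEKT genes at 24.1 TPM against 1.905 to 7.02 TPM.

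Labels that join a gene of the set to a neighbour were outside the comparisons. The label joining AKAP3 had a mean of 144 TPM in testis, above AKAP3's own 0.607 TPM. The label joining RSPH4A had a mean of 1.30 TPM in testis, above RSPH4A's own 0.323 TPM.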

How the results depend on the processing

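The counts for testis against the other glands and against epididymis moved little, to 77 to 81 and 76 to 78 over all alternatives. With a pseudocount of 0.1 in place of 1, 1 gene was called lower in testis than in epididymis, 50 genes higher and 1 lower in epididymis than in the accessory glands, 21 between bulbourethral gland and the other accessory glands, 21 between vesicular and prostate gland, 3 between the breeds in testis and 1 in epididymis. With size factors these counts were 15 higher and 1 lower in epididymis, 3 for bulbourethral gland, 9 between vesicular and prostate gland, and 0 between the breeds in epididymis. Size factors moved the median of all genes from 0.31 to 0.13 in testis, from 0.41 to 0.03 in epididymis against the accessory glands and from -0.27 to 0 between vesicular and prostate gland. In fits of only the groups compared, 0 genes were called between the breeds in testis and 0 in epididymis. That fit was not run for testis against the other 4 glands, which holds all libraries. The causes of these shifts were not tested.

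Leaving out 1 library gave 77 to 79 genes higher in testis, 76 to 78 against epididymis, 19 to 24 higher and 0 to 1 lower in epididymis, 5 to 7 for bulbourethral gland and 3 to 6 between vesicular and prostate gland. The 1 lower appeared without BMI epididymis replicate 3, DSE epididymis replicate 1, BMI prostate gland replicate 2 or DSE bulbourethral gland replicate 3. Breed calls ranged from 1 to 29 in testis, with 10 without BMI replicate 1, 4 without BMI replicate 3, 1 without DSE replicate 2 and 29 without DSE replicate 3. In epididymis they ranged from 0 to 4, with 1 without BMI replicate 2, 0 without BMI replicate 3, 1 without DSE replicate 1, 1 without DSE replicate 2 and 4 without DSE replicate 3. In bulbourethral gland they were 0 to 1, with 1 without DSE replicate 1 or DSE testis replicate 2.

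At least 5 TPM was met in every library by 11 genes in epididymis. Bulbourethral gland kept 10 at that level, prostate gland 8 and vesicular gland 3. At least 1 TPM in 3 of 6 libraries was met by 48 genes in epididymis and 25 in prostate gland. Adding joined labels gave 1.35% and 1.42% of full-length reads in BMI and DSE testis. At 5 TPM the leading transcript differed in 4 genes.

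With the replicate block the counts were 79, 77, 21, 6 and 4 between glands, and 15 and 3 between the breeds in testis and epididymis. Same-numbered libraries correlated at -0.30 to 0.39 across glands of a breed, over 0.1 in 21 of 60 pairs. Differently numbered libraries were not correlated, so these values cannot settle whether the numbers mark pairs. The main fit did not take the numbers as pairs. For single genes, 7350 values kept their call, 156 lost it and 0 reversed, 102 of the losses with 1 library left out. Another 2 values moved, the testis level of DNAH14 and its breed difference in epididymis without the isoform of 1051 nt.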

Other observations

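Apart from AKAP3 and RSPH4A, labels that join a gene of the set to a neighbour had testis means of 32.7 TPM for RSPH9, 24.5 TPM for CFAP126, 7.42 TPM for CFAP53, 3.30 TPM for TEKT3, 0.241 TPM for CFAP299 and 0.0927 TPM for CFAP20. For CFAP126 and RSPH9 this lay beside 91.1 and 106 TPM under their own labels.

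Among single genes in testis, 18 of 87 had 1 library far from the other 5 by Dixon's test, and in 17 of them it was DSE testis replicate 2 at the low end. Such a library was found for 14 genes in epididymis. Bulbourethral gland had 16 such genes, prostate gland 14 and vesicular gland 19. The share over all genes was not computed, so these counts are no result about the set.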
